A study of Mus musculus with 2 samples.

Results

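The genes described here are the keratins Krt7, Krt8, Krt17, Krt18 and Krt19 and the neural filament genes Vim, Nes and Synm. Their levels were compared between 2 RNA sequencing libraries of cultured mouse oligodendrocyte lineage cells. These 8 genes, of 18651 listed in either library, were chosen by name with their values in the same libraries already known, the keratins being among the largest differences, so what follows describes the genes and tests nothing. By its genotype label the control is wild type and Seh1cKO, a conditional knockout of Seh1l, is mutant, and each group holds 1 library. The sources used here do not give the Cre driver, the deleted exons or the number and sex of the animals. Both libraries came from cortical precursor cells of C57BL/6 pups 4 to 7 days old, isolated by panning on anti-GalC and anti-O4 antibodies. The cells were expanded with PDGF-AA and bFGF, each at 20 ng/ml, with NT3 at 1 ng/ml and with CNTF at 10 ng/ml. They were then differentiated in triiodothyronine (T3, 60 nM) without PDGF-AA, bFGF and NT3 and taken as immature oligodendrocytes on day 2.

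Levels are given in CPM, the reads of a gene per 1000000 reads of its library, at 20730114 reads in control and 20599590 in Seh1cKO. A fold is the ratio of CPM with its exact 95% Clopper-Pearson interval from the 2 read counts, which covers counting error only. Without a second library in either group the spread between cultures is unknown, and no test of the genotype was possible. In bulk RNA a change in the number of cells of one type and a change in RNA per cell cannot be told apart. The targeted gene Seh1l stood at 32.1 CPM (control) and 18.5 CPM (Seh1cKO), so the library labelled Seh1cKO held fewer of its reads but was not without them. The libraries also stood on opposite sides for sex-linked genes, with Xist at 18 reads in control and 7025 in Seh1cKO and the Y-linked Ddx3y at 1053 and 3 reads. Sex and genotype cannot be told apart here.

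Intermediate filaments are rope-like polymers that give a cell mechanical strength, and each cell type builds them from its own set of proteins. Keratins are the filaments of epithelia and polymerise only as pairs of a type I and a type II chain. Krt8 (type II) with Krt18 (type I) is the basic pair of simple, single-layered epithelia, Krt7 (type II) and Krt19 (type I) accompany it in many ducts and linings, and Krt17 (type I) is a keratin of epithelial appendages and of stressed epidermis. Vimentin (Vim) is the type III filament of mesenchymal cells, glial precursors and immature astrocytes. Nestin (Nes) is the large filament protein of neural progenitors, and synemin (Synm) joins the filaments of other proteins in muscle and astrocytes. Oligodendrocytes are known for losing most of their filaments as they mature.

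The promoter windows of the 3 keratin genes of chromosome 15 are shown because those genes were high in the same library, and that of Vim because it was high in both. Each is the 250 bases upstream of the annotated start, 5′ to 3′ on the strand of the gene, from RefSeq on GRCm38.p6, which matched 6 of the 8 genes. The windows are chr15:102004343-102004592 (minus strand) for Krt8, chr15:102027966-102028215 (plus strand) for Krt18, chr15:101412153-101412402 (plus strand) for Krt7 and chr2:13574061-13574310 (plus strand) for Vim. Capitals mark matches, on either strand, to 4 short motifs: the TATA box (TATAAA), the GC box (GGGCGG), the AP-1 site (TGANTCA) and the E-box of basic helix-loop-helix factors (CANNTG).
Krt8: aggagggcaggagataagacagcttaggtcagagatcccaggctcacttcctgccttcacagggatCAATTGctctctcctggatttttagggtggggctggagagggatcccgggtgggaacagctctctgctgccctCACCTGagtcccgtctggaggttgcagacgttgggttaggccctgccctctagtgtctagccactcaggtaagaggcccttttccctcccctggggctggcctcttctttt
Krt18: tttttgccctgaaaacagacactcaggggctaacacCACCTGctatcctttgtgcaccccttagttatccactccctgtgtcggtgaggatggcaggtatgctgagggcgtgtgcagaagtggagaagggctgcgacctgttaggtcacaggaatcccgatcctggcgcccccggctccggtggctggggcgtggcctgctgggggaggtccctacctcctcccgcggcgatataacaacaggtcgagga
Krt7: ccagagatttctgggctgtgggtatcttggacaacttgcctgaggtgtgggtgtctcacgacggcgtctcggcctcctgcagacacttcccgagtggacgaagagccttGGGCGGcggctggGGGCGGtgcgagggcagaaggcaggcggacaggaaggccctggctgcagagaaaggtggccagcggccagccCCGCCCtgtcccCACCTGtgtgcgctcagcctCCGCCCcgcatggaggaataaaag
Vim: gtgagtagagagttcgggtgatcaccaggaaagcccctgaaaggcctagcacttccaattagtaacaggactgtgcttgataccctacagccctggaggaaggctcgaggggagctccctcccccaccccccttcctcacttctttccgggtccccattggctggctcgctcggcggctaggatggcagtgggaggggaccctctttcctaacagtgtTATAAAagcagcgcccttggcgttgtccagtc
The Krt8 window held 2 E-boxes, that of Krt18 held 1, and that of Krt7 held 1 E-box and 4 GC boxes. The Vim window held a TATA box that began 32 bases before the start and no other match. None of the matches overlapped. Among 32851 such windows of the RefSeq table an E-box was found in 66.2%, a GC box in 32.7%, a TATA box in 12.4% and an AP-1 site in 6.75%. A match of letters is a description of the window and does not show a bound factor.

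The 5 keratins were close to absent in control and present in Seh1cKO. Krt8 (Entrez 16691, chromosome 15, 101996711 to 102004342) had 16 reads in control and 1621 in Seh1cKO, or 0.772 and 78.7 CPM, a 102-fold higher level (62.6 to 179). Its partner Krt18 (Entrez 16668, chromosome 15, 102028216 to 102032026) had 25 and 1317 reads, or 1.21 and 63.9 CPM, 53.0-fold higher (35.8 to 82.2). When genes are ordered by deposited FPKM, these 2 stood at positions 13724 and 12671 in control and at positions 2107 and 1997 in Seh1cKO. Krt17 (Entrez 16667, chromosome 11, 100256215 to 100261029) had 15 and 333 reads, or 0.724 and 16.2 CPM, 22.3-fold higher (13.4 to 40.4). Krt7 (Entrez 110310, chromosome 15, 101412403 to 101427806) had 7 and 207 reads, or 0.338 and 10.0 CPM, 29.8-fold higher (14.2 to 74.9). Krt19 (Entrez 16669, chromosome 11, 100140810 to 100145926) had 9 and 178 reads, or 0.434 and 8.64 CPM, 19.9-fold higher (10.3 to 44.2). The counting intervals of the levels did not overlap between the libraries for any of the 5. Those of Vim, at 1.28-fold, and of Nes and Synm did not overlap either. The share of all measured genes with separate intervals was not counted, so nothing is read from this.

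**Figure D1:**
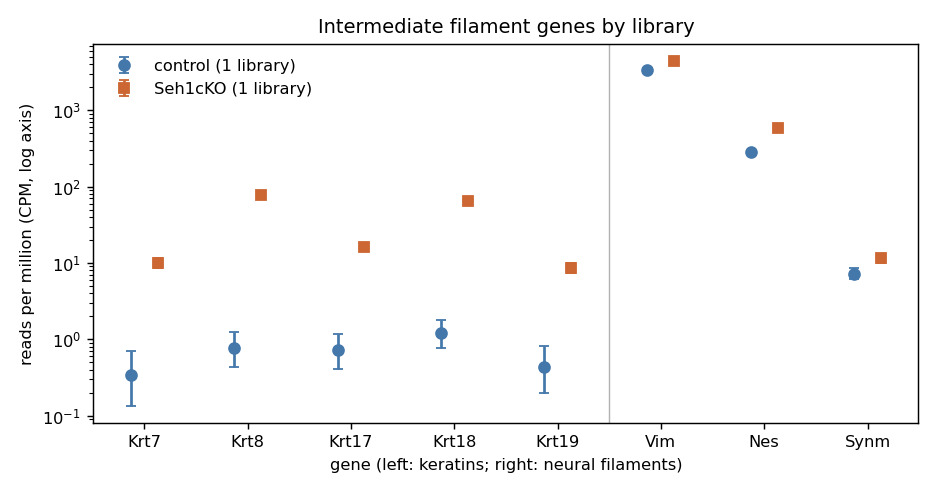
Level of each gene in CPM (log axis) in the control library (circles) and the Seh1cKO library (squares), with exact 95% Poisson intervals for counting error and 1 library per group. The keratins lie between 0.338 and 1.21 CPM in control and between 8.64 and 78.7 CPM in Seh1cKO, while Vim, Nes and Synm are expressed in both.

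Per length, in the deposited FPKM, the order in Seh1cKO was Krt18 (46.0), Krt8 (43.7), Krt17 (10.3), Krt19 (6.64) and Krt7 (6.3). In CPM, which is not corrected for length, Krt8 stood above Krt18 and Krt7 above Krt19, so the order within these 2 pairs turned with the scale and is not read as a difference. In control the 5 were at 0.21 to 0.87 FPKM, and no order was read from their 7 to 25 reads. Krt19 carries 2 annotated transcripts, and the transcript length deposited with it was 934 bases in control and 1314 bases in Seh1cKO. Its deposited FPKM, which divides reads by that length, was 0.48 and 6.64, 13.8-fold higher against 19.9-fold in CPM. The other 4 keratins had the same length in both tables, and their FPKM folds ran from 21.9 for Krt17 to 102 for Krt8.

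On the scale log2(CPM + 1), on which 2-fold is the threshold used here, Krt8 and Krt18 had the 2nd and the 3rd largest positive difference among 13758 measured genes, those averaging 1 CPM or more across the 2 libraries. The differences in log2(CPM + 1) were 5.49 for Krt8, 4.88 for Krt18, 3.32 for Krt17, 3.05 for Krt7 and 2.75 for Krt19. With Nes, 6 of the 8 genes were at least 2-fold higher in Seh1cKO, beside 394 of all measured genes (2.86%). None was at least 2-fold lower, beside 178 of all (1.29%). The share of higher genes among those past 2-fold was 68.9%, and 58.0% (204 higher, 148 lower) on the deposited FPKM scale. The genes were named for this contrast, so their count is not set against those shares. Krt7, Krt8, Krt17 and Krt19 were under 1 CPM in control and reached the mean of 1 CPM only through Seh1cKO.

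**Figure D2:**
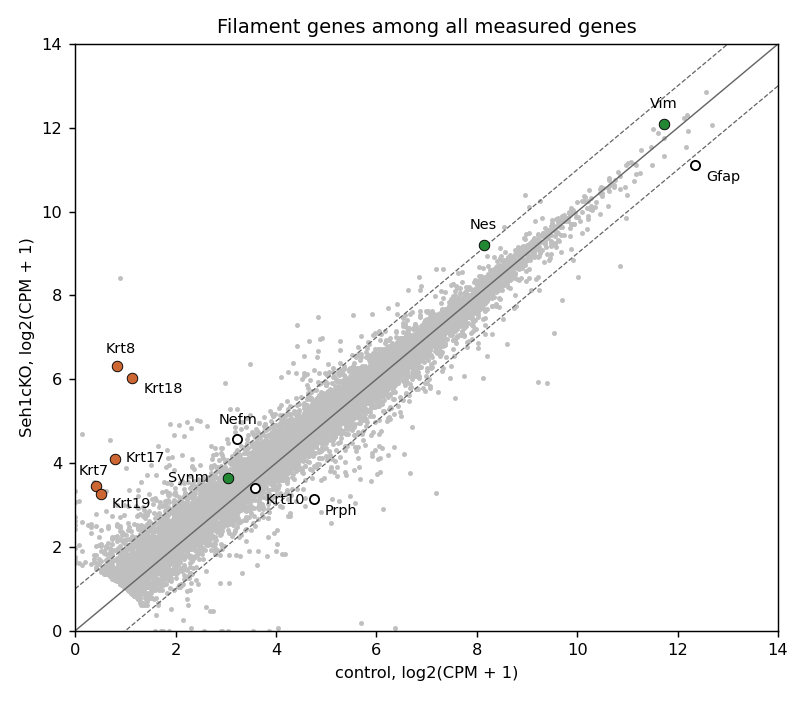
Each grey point is 1 of 13758 measured genes by log2(CPM + 1) in control (horizontal) and Seh1cKO (vertical), with the line of equality and dashed lines at 2-fold. The 5 keratins (orange) lie far above the upper dashed line, Nes lies on it, Vim and Synm (green) lie between the lines, and white points are 4 other filament genes, of which Gfap and Prph lie below the lower line.

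The RefSeq table holds 53 protein-coding keratin genes, of which 8 were measured. The 5 keratins described here were at least 2-fold higher in Seh1cKO, beside 2.86% of all measured genes. They were chosen with their values known, and Krt7, Krt8, Krt17 and Krt19 were measured only through Seh1cKO, so nothing is read from the count. Mouse keratins lie in 2 clusters, 27 genes on chromosome 11 with the type I chains and 26 on chromosome 15 with the type II chains and Krt18. The other 48 keratins together had 380 reads in control and 401 in Seh1cKO, and 21 of them were listed in neither library. Krt10, a keratin of the upper epidermis, held 226 of the 380 reads in control and 198 of the 401 in Seh1cKO (10.9 and 9.61 CPM), for a ratio of 0.882 (0.725 to 1.07) that was not separated from equality. Krt5, the basal epidermal keratin, had 22 and 23 reads, and Krt1, the epidermal partner of Krt10, had 23 and 39 reads, 1.71-fold (0.994 to 2.99). These 3 were the other keratins that averaged 1 CPM or more, and all were within 2-fold on the log2(CPM + 1) scale. The 5 keratins named at the start took 15.9% of keratin reads in control (12.7 to 19.6, exact binomial) and 90.1% in Seh1cKO (89.2 to 91.0). Krt8 and Krt18 alone took 9.07% (6.59 to 12.1) and 72.4% (71.0 to 73.8).

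**Figure D3:**
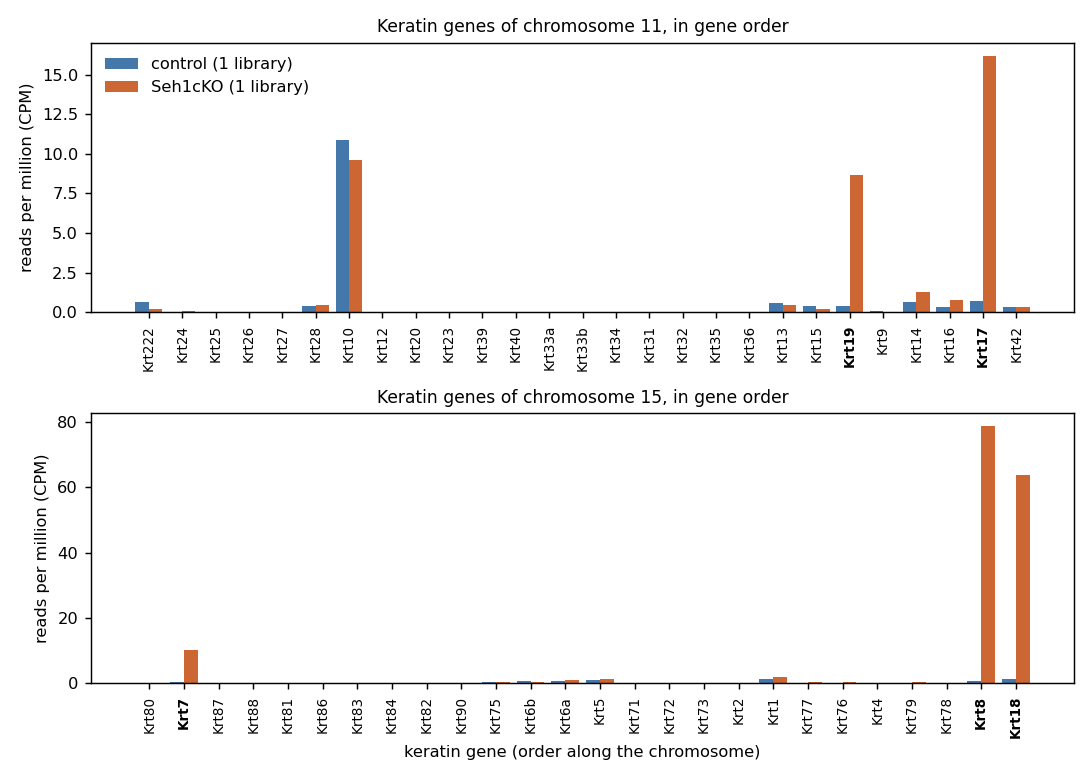
Level in CPM of all 53 keratin genes in their order along chromosome 11 (top) and chromosome 15 (bottom), control and Seh1cKO, 1 library each, with the 5 genes described here in bold. The 2 highest bars in Seh1cKO, Krt8 and Krt18, stand side by side, the other genes next to the 5 have few or no reads in either library, and Krt10 is near equal in both libraries.

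The 2 genes with the largest difference, Krt8 and Krt18, are neighbours at the end of the chromosome 15 cluster, 23873 bases apart and transcribed away from each other. The other keratins next to the 5 had 0 to 16 reads in either library, too few to show whether they differed by several-fold. On the other side of Krt8, Krt78 had 1 read in control and none in Seh1cKO, and Krt79 had 3 and 5. Krt7 lies near the opposite end of that cluster, where Krt80 had 0 and 2 reads and Krt87 none in either. On chromosome 11, Krt42 beside Krt17 had 7 reads in each library, and Krt16 on its other side had 7 and 16, 2.30-fold (0.895 to 6.61). Krt15 and Krt9, which flank Krt19, had 8 and 5 reads and 2 and 0 reads. A count of 0 allows up to 3 reads, or 0.145 CPM in control and 0.146 CPM in Seh1cKO.

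The RNA of type I and type II chains can be compared only per length, in the deposited FPKM. Types were taken from the annotation deposited by the authors. In Seh1cKO the type II chains Krt7 and Krt8 summed to 50.0 FPKM and the type I chains Krt17, Krt18 and Krt19 to 62.9 FPKM, a type II to type I ratio of 0.794. Krt8 and Krt18 were at 43.7 and 46.0 FPKM, a ratio of 0.949, so the RNA of both genes of the pair was at near equal levels. Protein was not measured. In control the same pair was at 0.43 and 0.87 FPKM, a ratio of 0.494 that rests on 16 and 25 reads. Over all 32 keratins listed in either library the ratio was 0.258 in control, where Krt10 holds 5.12 of 9.06 FPKM of type I, and 0.751 in Seh1cKO.

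The 3 filament genes of neural cells were abundant or present in both libraries, and all 3 were higher in Seh1cKO by small factors. Vim (Entrez 22352, chromosome 2, 13574311 to 13582826) had 70731 reads in control and 89710 in Seh1cKO, or 3412 and 4355 CPM, 1.28-fold higher (1.26 to 1.29). By FPKM it was the 18th gene in control and the 10th in Seh1cKO. Nes (Entrez 18008, chromosome 3, 87971093 to 87980451) had 5882 and 12039 reads, or 284 and 584 CPM, 2.06-fold higher (2.00 to 2.13). That value lies at the threshold, and the difference in log2(CPM + 1) of 1.04 became 0.96 when libraries were scaled by the median of ratios and 0.99 by the upper quartile. Synm (Entrez 233335, chromosome 7, 67730161 to 67759742) had 150 and 236 reads, or 7.24 and 11.5 CPM, 1.58-fold higher (1.28 to 1.96). The median difference of all measured genes was 0.07, so Vim at 0.35, Synm at 0.60 and Nes at 1.04 were above it. Fibroblast and mural cell genes, some of whose cells also make vimentin and nestin, were higher in the same library. Their summed level was 364 CPM in control and 863 CPM in Seh1cKO, including Cspg4, also an oligodendrocyte lineage gene, at 98.8 and 148 CPM. The part of fibroblast and mural cells in these values was not tested.

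Other type III and IV filaments went both ways. Gfap, the filament of astrocytes, had 107799 reads in control and 45601 in Seh1cKO, 2.35-fold lower (2.32 to 2.37). Prph, the peripherin of peripheral and some central neurons, had 538 and 161 reads, 3.32-fold lower (2.78 to 3.98). The neurofilament light chain Nefl had 29 and 119 reads, 4.13-fold higher (2.73 to 6.43), and the medium chain Nefm had 173 and 473, 2.75-fold higher (2.31 to 3.29). Thus the 2 lower and the 2 higher genes of this group both include filaments of neurons. Ina, an internexin of neurons, was at 14.2 and 15.8 CPM, and Des, the filament of muscle, at 1.30 and 1.65 CPM, both with intervals that include a ratio of 1. Of the 8 genes 7 were measured, with a median difference of 0.20. On the log2(CPM + 1) scale 2 were higher and 2 lower by at least 2-fold. Bfsp2, a filament gene of the lens, had 417 and 156 reads, 2.66-fold lower (2.20 to 3.21). The nuclear lamins, the filaments under the nuclear envelope, were all within 2-fold, with Lmna at 127 and 192 CPM and Lmnb2 at 25.2 and 28.7 CPM. Across the family of 50 listed genes 24 were measured, of which 8 were higher and 3 lower by at least 2-fold, beside 2.86% and 1.29% of all measured genes. Of those 8, 6 are the keratins and Nes chosen here with their values known, so nothing is read from the count.

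By length-scaled level, 2 genes supplied nearly all filament RNA of both libraries. Gfap held 49.2% and Vim 48.3% of the summed FPKM of 45 cytoplasmic filament genes in control, and 23.5% and 69.3% in Seh1cKO. Nes held 1.18% and 2.74%. The 5 keratins together held 0.0638% in control and 3.29% in Seh1cKO, a larger share than Nes there, although Vim alone was at 2377 FPKM and the 5 keratins together at 113 FPKM. The summed FPKM of all these genes was 3854 in control and 3430 in Seh1cKO.

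**Figure D4:**
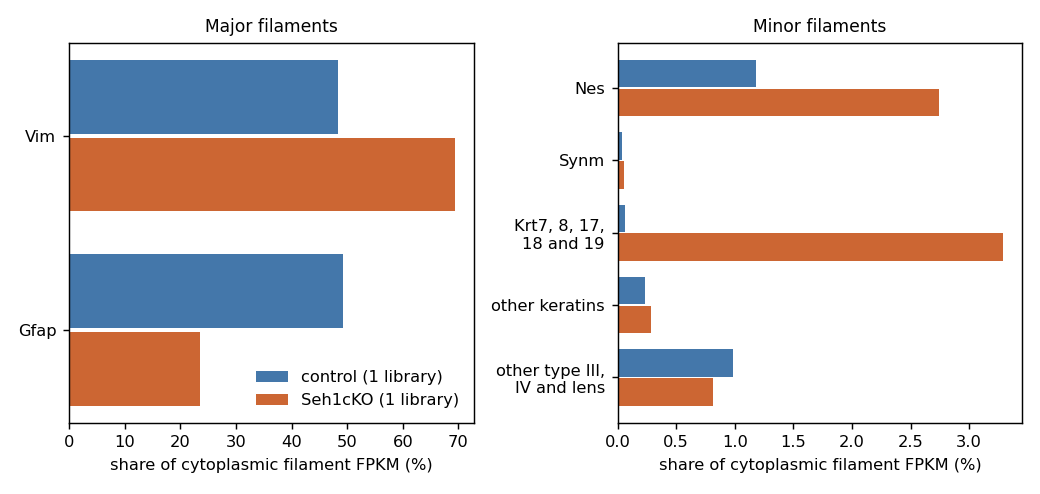
Share of the summed FPKM of 45 cytoplasmic intermediate filament genes held by Vim and Gfap (left) and by the less abundant filaments (right, different scale) in control and Seh1cKO, 1 library each. Gfap holds 49.2% in control and 23.5% in Seh1cKO, and the 5 keratins hold 0.0638% and 3.29%.

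Keratin filaments end on desmosomes and hemidesmosomes, and 15 genes of these junctions were examined. Of the 10 measured, 4 were at least 2-fold higher in Seh1cKO, beside 2.86% of all measured genes, and 6 within 2-fold. Their median difference was 0.52. The 5 under the floor also had more reads in Seh1cKO, such as Pkp1 with 0 and 28. The list was chosen with earlier results known, so nothing is read from the count. Ppl, the periplakin that ties keratin to the cell border, had 35 reads in control and 251 in Seh1cKO, 7.22-fold higher (5.05 to 10.6). Dsp, desmoplakin, the main keratin anchor of the desmosome, had 13 and 53 reads, 4.10-fold higher (2.21 to 8.20), and Evpl, envoplakin, 18 and 58. Dsp and Evpl were under 1 CPM in control and reached the mean of 1 CPM only through Seh1cKO. Perp, a membrane protein of desmosomes, was 3.15-fold higher (2.49 to 4.01). The more abundant junction genes that other cells also use were near equality, with Jup, plakoglobin, at 32.7 and 43.8 CPM and the integrin Itga6 at 107 and 84.1 CPM. The 4 higher genes were at 0.627 to 4.58 CPM in control, a range that also held Dsg2, desmoglein 2, at 0.820 and 1.31 CPM and the plakophilin Pkp2 at 3.96 and 6.21 CPM, both within 2-fold. The 10 cytolinkers and regulators of filaments were mostly close to equality, 9 of them within 2-fold, with Plec, plectin, at 223 and 178 CPM and Dst, dystonin, at 234 and 239.6 CPM.

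Markers of other cells were in the same 2 libraries. Of 14 genes of simple epithelium 8 were measured and 7 were at least 2-fold higher in Seh1cKO, beside 2.86% of all measured genes. Each of these 7 was under 1 CPM in control and reached the mean of 1 CPM only through Seh1cKO. The summed level of the list was 9.74 CPM in control and 55.6 CPM in Seh1cKO. Cdh1, the epithelial cadherin, had 6 and 220 reads, 36.9-fold higher (16.7 to 102). The tight junction genes Cldn3 and Cldn4 had no reads in control and 154 and 186 in Seh1cKO. Cldn3, Cldn4 and Esrp1 were the list's genes without reads in control, and all 14 had reads in Seh1cKO. The exception among the measured 8 was Epcam, an adhesion molecule of most simple epithelia, at 7.91 and 7.04 CPM. For mesothelium, the lining of body cavities, Msln had 2 and 513 reads, while Upk3b, Wt1, Lrrn4 and Muc16 had no reads in Seh1cKO. That list of 9 had a summed level of 394 and 407 CPM, nearly all of it from Gpm6a, which neurons also express. All 12 fibroblast and mural genes were higher, beside 8372 of 13758 measured genes, and 6 were at least 2-fold higher, beside 2.86%. Col1a1 was at 45.2 and 184 CPM. Cspg4, at 98.8 and 148 CPM, is also counted among the oligodendrocyte lineage genes. Choroid plexus and ependymal genes were within 2-fold on the log2(CPM + 1) scale in all 4 measured cases, at a summed 111 and 157 CPM. All 4 were higher in Seh1cKO, with Aqp1 at 2.23-fold (1.45 to 3.50) as a ratio of CPM. These lists were chosen with earlier results known, so nothing is read from their counts. The part of any of these cells in the keratin values was not tested.

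**Figure D5:**
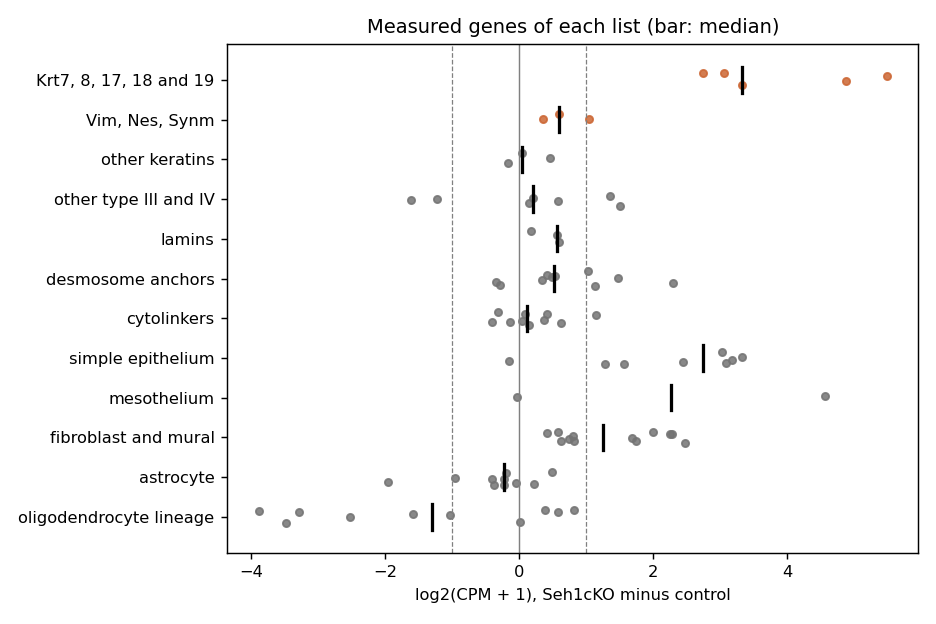
Difference in log2(CPM + 1), Seh1cKO minus control, for each measured gene (points) of 12 lists, with the list median as a bar, equality as a solid line and 2-fold as dashed lines. The 5 keratins run from 2.75 to 5.49 and the simple epithelium genes from -0.15 to 3.33, while the 3 other measured keratins lie between -0.17 and 0.46.

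Genes of the oligodendrocyte lineage were expressed in both libraries. Whether cells of the labelled stage were present in both was not tested. Olig2 had 496 CPM (control) and 648 CPM (Seh1cKO), and Olig1 at 864 and 873 CPM. Of 10 lineage genes 6 were at least 2-fold lower in Seh1cKO, beside 1.29% of all measured genes. Among them were Mag at 144 and 8.74 CPM and the myelin enzyme gene Cnp at 1037 and 347 CPM. The other 4, Olig1, Olig2, Pdgfra and Cspg4, were within 2-fold and had ratios above 1. Pdgfra was at 156 and 277 CPM, and the ratio of Olig1 was 1.01 (0.989 to 1.03). Astrocyte genes were abundant in both, at a summed 6972 and 5706 CPM for 10 genes. Of these 10 astrocyte genes 8 were lower in Seh1cKO, beside 5386 of 13758 measured genes, and 2 were higher. Their median difference was -0.23. Only 1 was at least 2-fold lower, S100b, beside 1.29% of all measured genes, and Aqp4 was at 539.5 and 277 CPM. Vim and Gfap are shared by such cells, so neither can be assigned to one cell type here.

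The genes nearest to Krt8 by their levels in both libraries (Euclidean distance in log2(CPM + 1) over the 2 libraries, the 8 genes themselves left out) were Thbd, Msln, Ly6a, Aldh1a2 and Shh, at distances of 1.74 to 1.94. Thbd, thrombomodulin, was at 2.70 and 29.8 CPM, and Aldh1a2, a retinoic acid synthesising enzyme, had 66 and 602 reads, 9.18-fold higher. Shh, the hedgehog ligand, was at 30.7 CPM in Seh1cKO. The genes nearest to Vim were much closer, at 0.24 to 0.50, namely Ftl1, Igfbp2, Actg1, Ckb and Scd2, all highly expressed in both libraries. With 2 libraries such likeness says only that the levels are similar.

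The authors' deposited table of genes that differed lists 6 of the 8 genes, all 5 keratins and Nes, and leaves out Vim and Synm. In the authors' deposited table the log2 fold changes, computed from FPKM without a pseudocount, were 6.67 for Krt8, 5.72 for Krt18, 4.91 for Krt7, 4.45 for Krt17, 3.79 for Krt19 and 1.04 for Nes. The other filament genes in the authors' deposited table were Nefl at 2.06, Nefm at 1.46, Prph at -1.73, Bfsp2 at -1.41 and Gfap at -1.23. That table rests on the same 2 libraries, so it adds no replicate.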

How the data were processed

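Per the file headers, the authors deposited 1 table per library with expected counts and FPKM values (reads per length of transcript and per library depth) under Entrez identifiers. Per the submitters' processing notes, HTSeq, StringTie and the mm10 build were used, without a statement of which made each column. The sources used here name neither the aligner nor the strand setting. The authors' deposited comparison table holds log2 fold changes with p-values and false discovery rates, and the sources used here do not name its test. Expected counts were rounded, then scaled to CPM, and genes missing from a table were set to 0. Log2 ratios used a pseudocount of 1 CPM, which understates the difference of low genes, and the threshold was 2-fold at a mean of at least 1 CPM. Intervals were computed with scipy 1.17.1. Paralogous keratins can share reads, and how the authors split them was not tested. Genes were matched by identifier to the RefSeq table of GRCm38.p6, the assembly behind mm10, for 18611 of 18651 genes. The calculation of ratios, calls and intervals was tested on simulated data. The genes and lists were chosen with earlier results of these data known. Named genes were the 8 genes, other keratin, type III, type IV and lamin genes at 1 CPM or more, up to 4 genes of each list by absolute log2 ratio with the 3 most abundant of each cell type list, and the 5 nearest to Krt8 and to Vim, and not every such gene is printed. Keratins that flank the 5 genes in their clusters and genes without reads were named after their values were seen. The alternatives were pseudocounts of 0.1 and 5 CPM, scaling by the median of ratios or upper quartile, the deposited FPKM, no floor or a floor of 5 CPM, and leaving out chromosomes X and Y. Markers of neurons, endothelium and microglia were also summed, at 697, 27.2 and 8.39 CPM in control and 614, 57.8 and 18.0 CPM in Seh1cKO.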

Additional observations from a re-analysis of the deposited data

How the results depend on the processing

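No paired analysis was possible because each group holds 1 library. All 40 alternative log2 ratios of the 8 genes stayed above 0. Counts of genes have no direction to lose. The 8 genes and the family kept counts within 1.5 times of those given, with 5 of the 8 at least 2-fold higher under scaling by the median of ratios, the upper quartile or a floor of 5 CPM. With a pseudocount of 0.1 CPM the log2 ratios were 6.50 for Krt8, 5.62 for Krt18, 4.54 for Krt7, 4.30 for Krt17 and 4.03 for Krt19. With a pseudocount of 5 CPM they were 3.86, 3.47, 1.50, 1.89 and 1.33 in the same order. These shifts follow from adding a constant to control levels near or under 1 CPM. The log2 ratio of Nes was 0.96 and that of Vim 0.27 under the median of ratios, and 0.99 and 0.31 under the upper quartile. Of all genes, 637 were at least 2-fold higher with a pseudocount of 0.1 CPM, 141 with 5 CPM (116 lower), 204 on the FPKM scale and 228 with a floor of 5 CPM. Depth limits the control levels of the keratins, which rest on 7 to 25 reads.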

Other observations

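Some keratins under the floor of 1 CPM belong to the pairs of stratified and stressed epithelium. Krt14, the basal partner of Krt5, had 14 reads in control and 26 in Seh1cKO, Krt16 had 7 and 16, and Krt6a, the partner of Krt16 and Krt17, had 11 and 22. Krt6b, a close copy of Krt6a, had 11 and 4 reads, and how the authors split reads between such copies was not tested. At these depths the values are given here without a fold, and the fold of Krt16 given above has an interval that includes equality.

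The E-box form CACCTG was noticed in the promoter windows after they had been read. It stood in 3 of the 6 windows that matched, those of Krt7, Krt8 and Krt18, and in 17.2% of all 32851 windows. It was picked from the same windows in which it is counted, so the count supports no statement about these genes.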
